A study of Mus musculus with 4 samples.

Results

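Genes of the heat shock protein and DnaJ chaperone families were followed through molar tooth development in the mouse. Members were taken by name, as every probe whose gene name on the array begins with Hsp followed by a, b, d, e, h or a digit, or with Dnaja, Dnajb or Dnajc. This gave 124 of 41174 probes, which stand for 62 genes, and 54 of these genes were measured, out of 17415 measured genes in all. The tissue was whole first molar germs of the mandible from C57BL/6 embryos, with no genetic change or treatment, pooled at embryonic day (E) 11, 12, 16 and 18 and set against pooled germs of E14. RNA of the named stage carried the dye Cy5 and RNA of E14 the dye Cy3, on 4 arrays, 1 per stage. Pool sizes (germs or litters) are not stated in the labels. Each stage was hybridised 1 time and E14 4 times with no swap of dyes, so a dye effect is part of every ratio to E14.

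Heat shock proteins are chaperones: they hold or refold unfolded proteins. HSP70 proteins bind and release unfolded chains with energy from ATP, DnaJ (HSP40) proteins bring them clients and speed their ATPase, HSP110 proteins exchange their nucleotide, HSP90 proteins mature kinases and receptors, and small heat shock proteins keep unfolded chains from aggregating. Inducible members are switched on by heat shock factor 1 through heat shock elements in their promoters, constitutive members work in unstressed cells, and those of the endoplasmic reticulum (ER) are raised by the unfolded protein response when a cell secretes more protein. In the lower molar, the days studied take in the epithelial thickening, the bud, the cap and the bell, and in the bell the enamel-forming and dentin-forming cells differentiate.

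Promoter stretches are shown for members picked because they held a heat shock element or an ER stress response element. They come from RefSeq's GRCm38.p6 windows of 250 bases before to 50 after each transcript start. Of the 62 members, 51 matched a window by symbol. The first set is shown for its matched heat shock elements, in the strand of the gene. The GAA and TTC of each match shown are in capitals, and other GAA and TTC stay in lower case.
Hspa1a: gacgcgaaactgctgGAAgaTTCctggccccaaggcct
Hspb1: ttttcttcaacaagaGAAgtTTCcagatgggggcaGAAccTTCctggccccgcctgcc
Dnaja4: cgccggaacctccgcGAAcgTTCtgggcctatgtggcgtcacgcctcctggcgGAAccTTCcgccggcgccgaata
Hsph1: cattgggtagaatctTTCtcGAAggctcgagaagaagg
Hspd1: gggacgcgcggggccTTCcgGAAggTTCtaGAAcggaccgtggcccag

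These stretches lie at chr17:34972238-34972275 on the minus strand (Hspa1a), chr5:135887787-135887844 on the plus strand (Hspb1), chr9:54699454-54699529 on the plus strand (Dnaja4), chr5:149636347-149636384 on the minus strand (Hsph1) and chr1:55088044-55088091 on the minus strand (Hspd1). The pair GAANNTTC was found in the windows of 12 of the 51 matched members (23.5%), against 9.04% of all 27025 genes with a window and 7.86% of all 32851 windows. The pair TTCNNGAA was found in 6 (11.8%), against 9.60% of genes and 8.52% of windows. A longer element of the units TTC, GAA and TTC with 2 free bases between neighbours, which overlaps the pairs, was found in 4 members (Dnajb6, Hspd1, Hspe1 and Hsph1), against 0.662% of genes and 0.603% of windows. In Hsph1 the longer element lies after the transcript start and is not in the stretch shown. Both strands were searched. No match to these heat shock elements was found for Hspa12b, nor for the inducible genes Hsp90aa1, Dnajb1 and Hspa4l. A gene without a window could give no match. Hspd1 and Hspe1 lie head to head, and their matches are the same bases, chr1:55088059-55088076, so they count as 1 site.

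The second set is shown for the ER stress response element, CCAAT and CCACG with 9 free bases between them, its fixed letters in capitals. The Hsp90b1 stretch holds it 2 times, the second time on the other strand.
Hspa5: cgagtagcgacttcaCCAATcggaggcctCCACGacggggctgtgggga
Dnajc3: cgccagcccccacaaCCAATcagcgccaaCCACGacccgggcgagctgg
Hsp90b1: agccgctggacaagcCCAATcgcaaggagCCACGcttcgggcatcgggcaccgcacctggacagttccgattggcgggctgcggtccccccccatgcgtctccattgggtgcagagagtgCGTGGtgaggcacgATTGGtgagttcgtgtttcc

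They lie at chr2:34772010-34772058 on the plus strand (Hspa5), chr14:118937812-118937860 on the plus strand (Dnajc3) and chr10:86705518-86705671 on the minus strand (Hsp90b1). These 3 were the only matched members with this element, which 0.137% of all genes and 0.119% of all windows held. All matches are matches of letters and say nothing of binding.

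The share of probes well above background ran from 52.5% to 59.0% for the stages (Cy5) and from 54.3% to 57.0% for E14 (Cy3), and no spot was saturated. After a quantile scaling between arrays, the log2 level of E14 varied over its 4 hybridisations with a median SD of 0.05 over the 54 measured members (0.01 to 0.16). This is technical spread if E14 was 1 pool, and the scaling can make it smaller. Whether E14 was 1 pool or several is not stated. The stages have no replicate, so a ratio at 1 stage is a value with no test, and the spread between animals is unknown. The test across stages was a straight line in embryonic day through the 4 log2 ratios, fitted with limma to all 17415 genes with Benjamini-Hochberg adjustment and a threshold of 0.05. "Rose" and "fell" below refer to this test. Slide follows stage, with both early stages on slide 1 and both late stages on slide 2. Median centring of the arrays, in place of the intensity-dependent loess used here, moved the median of all genes to 0.40, 0.64, 0.57 and 0.17 at E11, E12, E16 and E18, and a direction that turned round under it, relative to that median, is pointed out.

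Most members stayed near their E14 level throughout. Of the 54 measured members, 46 were within 2-fold of E14 on all 4 arrays. The same share over all genes was not counted, so whether the members differ in this from other genes is not known. The median log2 ratio of the members over E11, E12, E16 and E18 was -0.03, 0.00, 0.09 and 0.03, beside -0.02, 0.00, 0.00 and -0.01 over all measured genes. Under median centring the members' median stood above that of all genes at each stage, by 0.39, 0.37, 0.43 and 0.40. At E11, 5 members were at least 2-fold from E14: Dnajc2 and Hsp90aa1 higher, Hspa1a, Hspb1 and Hspb8 lower. Over all genes 6.47% were, 1.6% higher and 4.87% lower. At E12, 3 members were at least 2-fold lower (Hspa1a, Hspa5 and Dnajc3) and none higher, beside 2.63% and 0.316% of all genes (2.95% in either direction). At E16, 3 were past 2-fold, Hspa1a and Hspb1 higher and Hspa12b lower, beside 2.0% and 1.69% of all genes (3.7% in all). At E18 it was the same 3 genes in the same directions, beside 3.81% and 3.85% (7.66% in all). Under median centring, relative to the median of all genes, 16, 4, 4 and 8 members were past 2-fold at E11, E12, E16 and E18, of which 15, 3, 4 and 7 were higher.

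**Figure D1:**
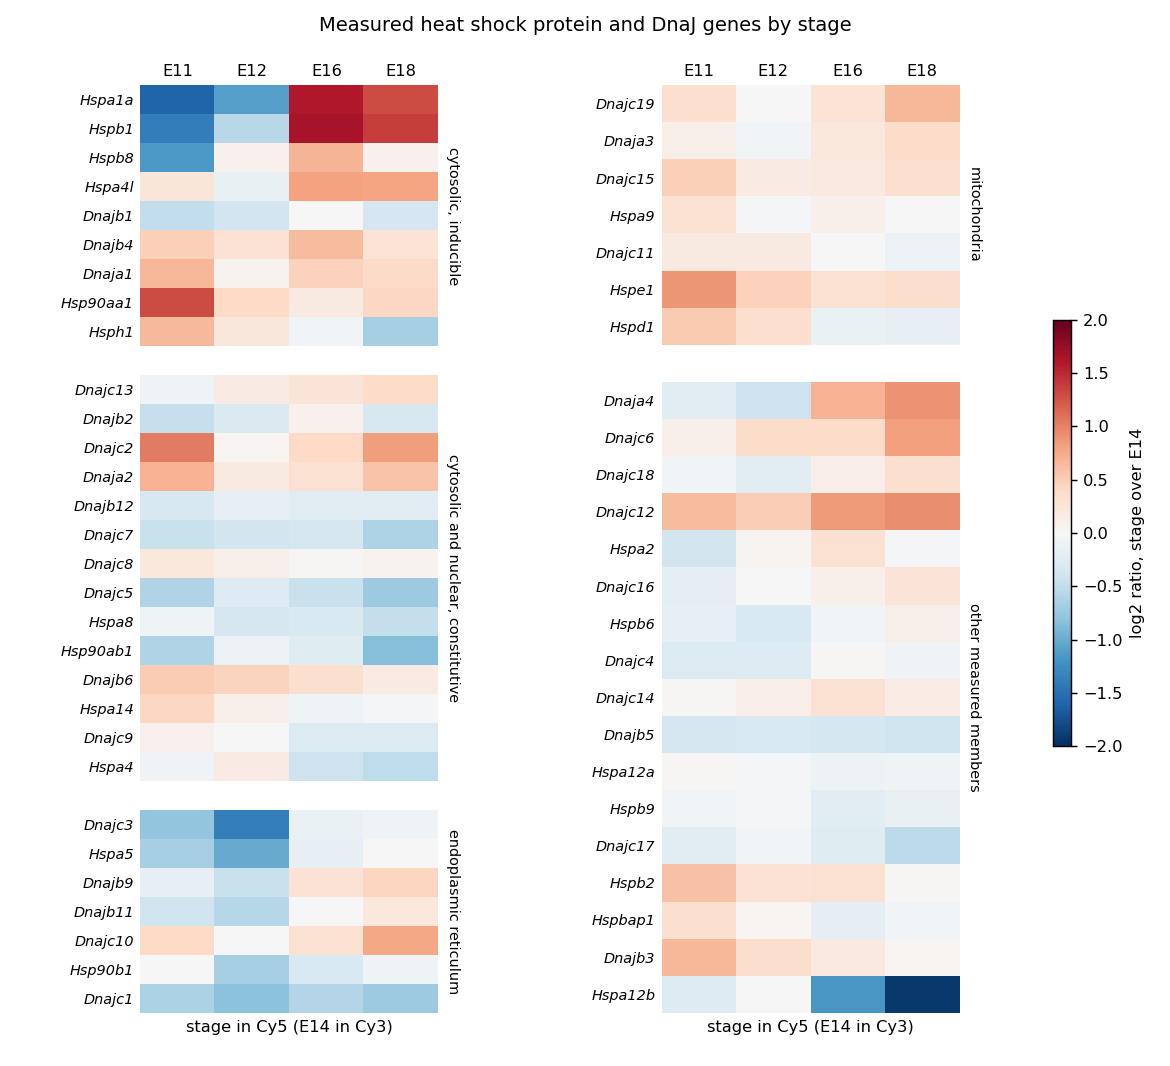
Log2 ratio of each stage (Cy5) over E14 (Cy3) for the 54 measured members, 1 row per gene and 1 column per array, grouped by compartment and inducibility; red is higher in the stage and blue is lower, with the scale ending at 2 in either direction. Hspa1a and Hspb1 run from blue at E11 and E12 to red at E16 and E18, Hspa12b is blue at E16 and E18, and most other rows are pale.

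Across stages 5 members passed the slope test. Hspa1a, Hspb1 and Dnaja4 rose with embryonic day, Hspa12b and Hsph1 fell, and 49 did not pass. Over all measured genes 8.87% passed, 6.24% rising and 2.63% falling, and 5 of 54 is a share of 9.26%, near that background. At an unadjusted p under 0.05, 15 members (27.8%) were counted, beside 27.7% of all genes. When slide was added to the fit as a block, with 1 residual degree of freedom, 0 members and 0.0% of the 17415 genes passed. At an unadjusted p under 0.05 there were 581 genes (3.34%), of which 1 was a member, Dnajc6 (named after its values were seen). Whether the 5 changes belong to stage or to slide cannot be told apart by these arrays.

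The inducible HSP70 gene Hspa1a, whose protein is the classic marker of heat shock, was the member with the steepest slope. Its normalized intensity was 110, 161, 1113 and 886 at E11, E12, E16 and E18, against 334, 345, 367 and 360 in E14 on the same arrays (E14 mean 351 ± 14.7, SD, n = 4 hybridisations). The first pair of stages lay below all E14 values and the second pair above them. Its level was 3.03-fold and 2.13-fold lower than E14 at E11 and E12, and 3.03-fold and 2.46-fold higher at E16 and E18. The slope was 0.47 ± 0.07 log2 units per day (SE, limma, adjusted p = 0.016). Being at least 2-fold lower at both early stages and at least 2-fold higher at both late ones was shared with 19 other genes of the array (20 in all, 0.115%), and Hspa1a was the only member among them. This rule has the shape of the Hspa1a profile itself, so the count gives that profile no support. Relative to all genes, Hspa1a at E12 fell short of 2-fold under median centring (-0.94) and with probe means (-0.69).

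The array holds 4 probes for Hspa1a. Its brightest lies at chr17:33066911-33066970 of mm7, the build named in the file headers (exons and untranslated parts were not looked up, with no annotation of that build used here), and gave log2 ratios of -1.60, -1.09, 1.60 and 1.30. A neighbouring probe gave -1.62, -1.11, 1.39 and 1.23, a dimmer one -0.83, -0.50, 1.08 and 0.73, and the dimmest -0.16, -0.02, 0.36 and 0.33. The dimmest probe was not well above background at E11 and E12, nor in E14 on any array, so its ratios have no measured E14 signal. It counts as measured by the rule used here, through Cy5 at E16 and E18, and enters the mean of all 4 probes. The other 3 probes were below E14 at both early stages and above it at both late ones. Hspa1b, a near-identical copy of the gene, is not analysed here, so signal of that copy cannot be told apart from Hspa1a. With the mean of all 4 probes the slope was 0.31 (adjusted p = 0.022).

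Hspb1, the small heat shock protein HSP27 that also binds the actin cytoskeleton, had the same order of stages (probe at chr5:134860337-134860524 of mm7). Its intensity was 449, 863, 4128 and 3549 at E11, E12, E16 and E18, against 1168, 1269, 1313 and 1360 in E14 (E14 mean 1277 ± 81.9, n = 4). It was 2.60-fold lower than E14 at E11, 3.14-fold higher at E16 and 2.61-fold higher at E18, with a slope of 0.42 ± 0.07 (adjusted p = 0.018). Both early values lay below the E14 values and both late ones above. Through E14, E18 stood 6.79-fold above E11, and for Hspa1a 7.46-fold.

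Dnaja4, a DnaJ protein of the cytosol, rose by less (probe at chr9:54745206-54745265 of mm7). Its intensity was 89.9, 88.2, 185 and 219 over the stages, against 105.3, 117.2, 113.7 and 117.2 in E14 (E14 mean 113 ± 5.6, n = 4). The log2 ratios were -0.23, -0.41, 0.70 and 0.90, and the slope was 0.19 ± 0.03 (adjusted p = 0.021). Dnaja4 is dim, and the scanner's own log ratios, to which no offset had been added, put its slope at 0.36.

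Hspa1a, Hspb1 and Dnaja4 each lay below E14 at E11 and E12 and above it at E16 and E18. A further 3 members had this sign pattern, Dnajb9, Dnajb11 and Dnajc18 (the last named after its values were seen). This makes 6 of 54 (11.1%), beside 11.5% of all genes. Under median centring Dnajb11 and Dnajc18 lost it. At E11 the dimmer measured probes of Dnajb9 (0.02 and 0.13) and Dnajc18 (0.12) stood above E14, so the pattern of these genes rests on their brightest probe. All 7 listed markers of dental epithelium and all 7 of dental mesenchyme were measured. Those of epithelium moved the same way as the 3 chaperones: 6 of 7 rose, and their summed intensity was 9224, 22873, 112156 and 99509 at E11, E12, E16 and E18, against 58847 to 71614 in E14. Of the 8 measured markers of keratinizing epithelium 2 rose (Spink5 and Lor), with a summed intensity of 1377, 1623, 11092 and 4423 against 3306 to 3703 in E14. Of 11 handling and immediate early genes 4 rose (Junb, Egr1, Atf3 and Ier3), with medians of -0.84, -0.78, 0.19 and 0.03. Their summed intensity was 2631, 1973, 4098 and 3937, against 5022 to 5165 in E14, and 3 of them (Egr1, Egr2 and Egr3) were at least 2-fold lower than E14 at each of the 4 stages. The part of these in the rise of the 3 chaperones was not tested, and in whole germs fewer cells of a type and less RNA per cell cannot be told apart.

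Hspa12b, a distant HSP70 relative described in mouse endothelial cells, fell with embryonic day (probe at chr2:130886670-130886729 of mm7). Its intensity was 769, 968, 392 and 232 at E11, E12, E16 and E18, against 921, 959, 883 and 881 in E14 (E14 mean 911 ± 36.6, n = 4). The late stages were below every E14 value, 2.25-fold at E16 and 3.80-fold at E18, and E11 was 1.20-fold lower, a sign that turned under median centring (0.26). The slope was -0.26 ± 0.04 (adjusted p = 0.018). Of 9 endothelial markers, among them Cdh5, Pecam1 and Kdr, none passed the slope test; 1 had an unadjusted p under 0.05. Their medians were -0.25, -0.32, -0.51 and -0.43, and their summed intensity was 3713, 3138, 2964 and 2810, against 4122 to 4404 in E14. Cldn5, a tight junction protein of vessels, was the lowest of them at E18 with -1.29. Their part in the fall of Hspa12b was not tested.

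Hsph1, the HSP110 partner of HSP70, fell as well (probe at chr5:148550005-148550064 of mm7). Its intensity was 6441, 4977, 4280 and 2661 at E11, E12, E16 and E18, against 4104, 4234, 4427 and 4229 in E14 (E14 mean 4249 ± 133, n = 4). E11 and E12 were above the E14 values, E18 was below them and E16 lay among them. The slope was -0.16 ± 0.03 (adjusted p = 0.036), and Hsph1 stood 2.49-fold lower at E18 than at E11. It was negative within each slide, with -0.42 for E12 minus E11 and -0.62 for E18 minus E16.

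Within slides, each of the other 4 genes had 1 step in the direction of its slope and 1 against it. Hspa1a stood 0.50 higher at E12 than at E11, and 0.30 log2 units lower at E18 than at E16 (-0.30). Hspb1 gave 0.82 and -0.27, Dnaja4 -0.18 and 0.20, and Hspa12b 0.27 and -0.76. With slide as a block the slopes were -0.02 ± 0.18 for Hspa1a, 0.06 ± 0.20 for Hspb1, 0.04 ± 0.12 for Dnaja4, -0.25 ± 0.18 for Hspa12b and -0.33 ± 0.16 for Hsph1. Hspa12b and Hsph1 therefore kept a negative slope with larger errors, and the slopes of Hspa1a, Hspb1 and Dnaja4 were smaller than their errors. Without the E12 array none of the 5 passed (adjusted p of 0.06 to 0.09), without E11 only Hspa12b did, and without E18 Hsph1 did not (adjusted p = 0.20).

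**Figure D2:**
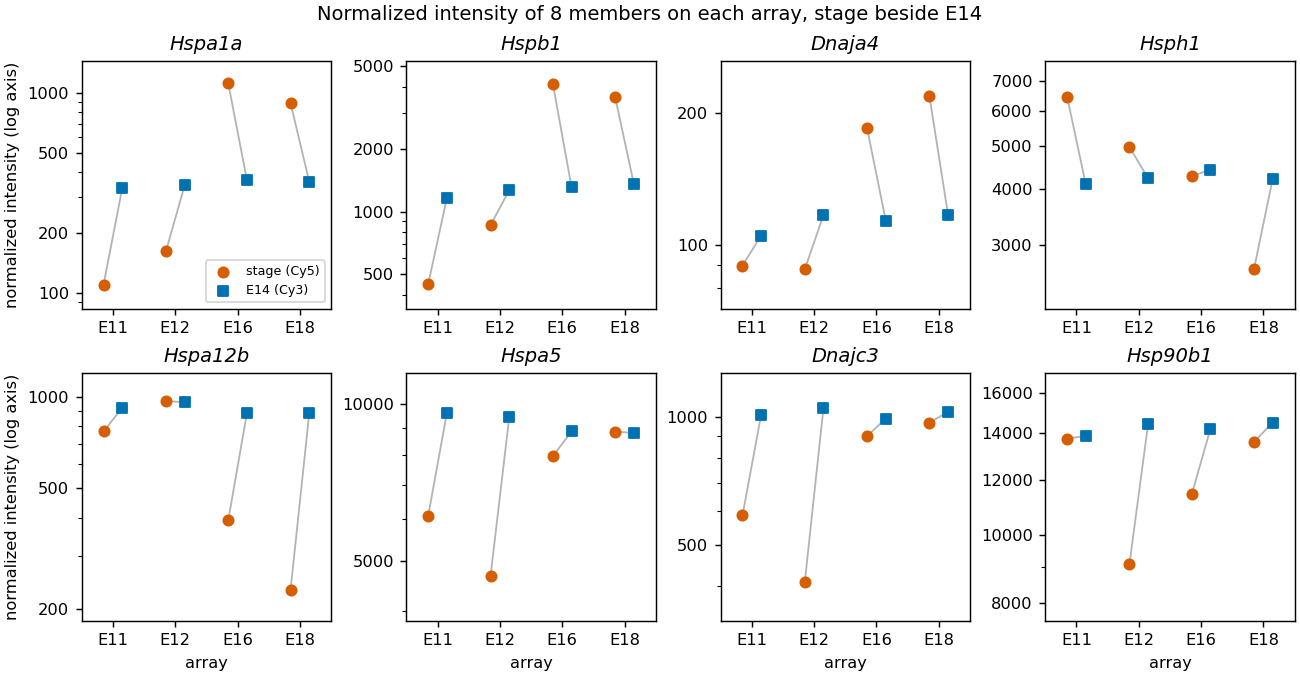
Normalized intensity (log axis, each panel on its own scale) of 8 members on the 4 arrays, with the stage in Cy5 as an orange circle left of E14 in Cy3 as a blue square from the same array. For Hspa1a the stage was at 110 and 161 on the arrays of E11 and E12 and at 1113 and 886 on those of E16 and E18, while E14 stayed between 334 and 367.

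**Figure D3:**
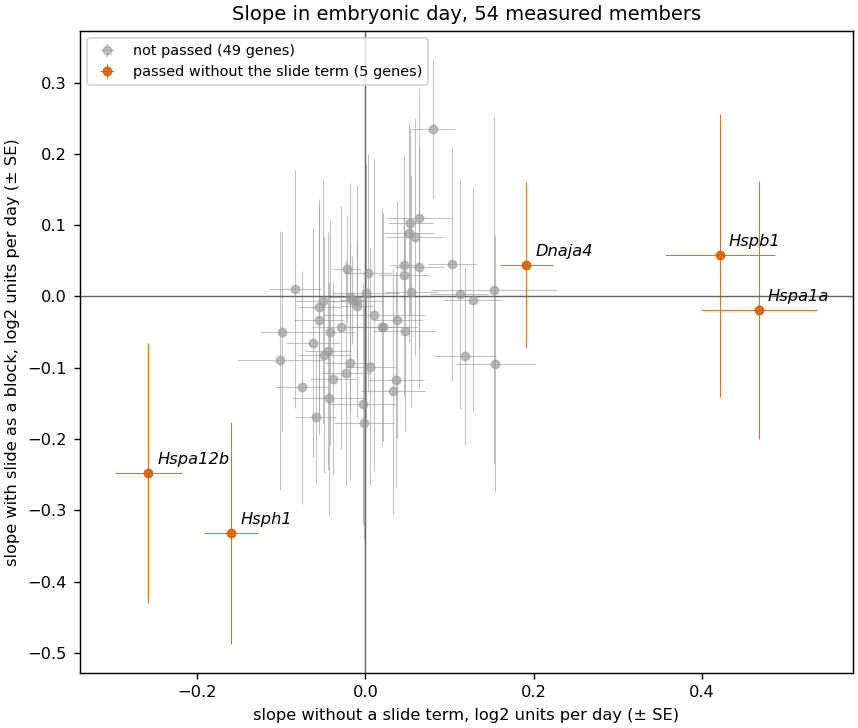
Slope in embryonic day of the 54 measured members without a slide term (x axis) and with slide as a block (y axis), in log2 units per day, with bars of 1 SE. The 5 members that passed without the slide term are orange; with the block the bars of Hspa1a, Hspb1 and Dnaja4 cross 0.

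The medians of the inducible list (cytosolic) and the constitutive list (cytosolic and nuclear) differed most at the late stages, though few genes of either list moved. The inducible list holds 9 measured genes, of which 2 rose (Hspa1a and Hspb1), 1 fell (Hsph1) and 6 did not pass; of the 14 constitutive genes none passed, and 1 had an unadjusted p under 0.05. The median log2 ratio of the inducible genes was 0.24, 0.08, 0.63 and 0.39 at E11, E12, E16 and E18, and that of the constitutive genes -0.08, 0.02, -0.16 and -0.25, which under median centring, relative to all genes, stood above 0 throughout (0.79, 0.64, 0.39 and 0.34). Inducible minus constitutive medians were thus 0.31, 0.05, 0.79 and 0.64. At E16 and E18 the inducible median was the higher under each scaling tried, and at E11 and E12 it was the lower under median centring (-0.29 and -0.09), and at E11 also with probe means (-0.0057). No test of the difference is given. The lists were chosen with earlier results of these data known, and both late stages are on slide 2.

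The inducible genes spanned a wider range than the constitutive ones at E11 and at E16. At E11 their log2 ratios ran from -1.60 (Hspa1a) to 1.31 (Hsp90aa1), and at E16 from -0.05 (Hsph1) to 1.65 (Hspb1). Constitutive genes spanned -0.60 (Hsp90ab1) to 1.04 (Dnajc2) at E11 and -0.44 (Dnajc5) to 0.40 (Dnajc2) at E16. At E11, 5 of the 9 inducible genes stood above E14, and at E16 8 of 9, beside 8337 and 8832 of all 17415 genes.

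Hsp90aa1, the inducible cytosolic HSP90, was highest at the earliest stage. Its intensity was 31596, 20847, 18003 and 21041 at E11, E12, E16 and E18, against 12721, 15772, 15892 and 15827 in E14 (E14 mean 15053 ± 1555, n = 4). All 4 stages lay above E14 on their own array, by 2.48-fold at E11 and 1.13-fold to 1.33-fold later. Its E14 value on the E11 array was the lowest of the 4, and its SD over E14, 0.16 log2 units, the largest among the members. The slope, -0.10 ± 0.05, did not pass (adjusted p = 0.26).

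Hsp90ab1, its constitutive counterpart, lay below E14 on each array, with log2 ratios of -0.60, -0.11, -0.25 and -0.85, of which the first 3 turned under median centring (0.58, 0.83 and 0.48). Its second probe gave 0.02, 0.15, -0.08 and -0.79, so the low value of the brightest probe at E11 was not shared. The slope did not pass (adjusted p = 0.57). The pair of HSP90 genes therefore stood on opposite sides of E14 at each stage on their brightest probes, and under median centring at E18 alone.

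Hspb8, a small heat shock protein that works with the cochaperone Bag3 in selective autophagy, was low at E11 alone. Its intensity was 332, 836, 1190 and 806 at E11, E12, E16 and E18, against 735, 788, 746 and 763 in E14. It was 2.21-fold lower at E11 and 1.60-fold higher at E16, and E12 and E18 were within 1.06-fold of E14. From E11 to E12 no other member differed by 2-fold or more; 0.976% of all genes did (0.672% higher at E12). Its slope, 0.15 ± 0.07, did not pass (adjusted p = 0.25), and without the E18 array it did. Bag3, named here for that partnership, had log2 ratios of -1.21, -0.46, 0.26 and 0.18 and missed the threshold (adjusted p = 0.057).

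Hspa4l, an HSP110 relative, had log2 ratios of 0.24, -0.14, 0.80 and 0.78 and did not pass (adjusted p = 0.10). Dnajb1, the main inducible DnaJ partner of HSP70, stayed within 1.40-fold of E14, with -0.49, -0.38, 0.01 and -0.33, and 3 of these turned under median centring (0.51, 0.42 and 0.31 at E11, E12 and E18). Dnaja1, a farnesylated DnaJ protein, gave 0.67, 0.08, 0.47 and 0.39, and Dnajb4 gave 0.48, 0.29, 0.63 and 0.28. Both stood above E14 at all stages, and the second probe of Dnaja1 gave 1.42, 0.82, 0.83 and 1.08. Dnajb1, the gene of the list most closely paired with Hspa1a in the heat shock response, had no rise that passed the test (slope 0.04 ± 0.03, adjusted p = 0.51).

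Among constitutive genes, Hspa8, the HSP70 of unstressed cells, had log2 ratios of -0.09, -0.33, -0.30 and -0.47, all of which turned under median centring (1.09, 0.60, 0.42 and 0.35). The array places its brightest probe on chromosome 5, while RefSeq has Hspa8 on chromosome 9; for the other 53 measured members the chromosomes were the same, so the Hspa8 value is uncertain. Dnajc2, which works at the ribosome on emerging chains, gave 1.04, 0.05, 0.40 and 0.84, a 2.06-fold difference from E14 at E11. Dnaja2, a DnaJ partner of Hspa8, gave 0.69, 0.18, 0.31 and 0.57, and Dnajb6, which keeps aggregation-prone proteins soluble, 0.51, 0.44, 0.33 and 0.17. The probes of Dnajb6 spread by over 1 log2 unit at E18, from 0.17 to 1.46. Dnajc5, a synaptic vesicle DnaJ protein, gave -0.60, -0.25, -0.44 and -0.72, the first 3 turning under median centring (0.14, 0.40 and 0.002). Hspa4, an HSP110 protein, gave -0.08, 0.16, -0.42 and -0.51, the first turning (0.60), with a slope that did not pass (adjusted p = 0.14). The second probe of Hspa4 gave 0.53, -0.01, -0.09 and 0.30, so its low value at E18 was not shared. The other constitutive genes, Hspa14, Dnajb2, Dnajb12, Dnajc7, Dnajc8, Dnajc9 and Dnajc13, were within 2-fold of E14 on each array.

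**Figure D4:**
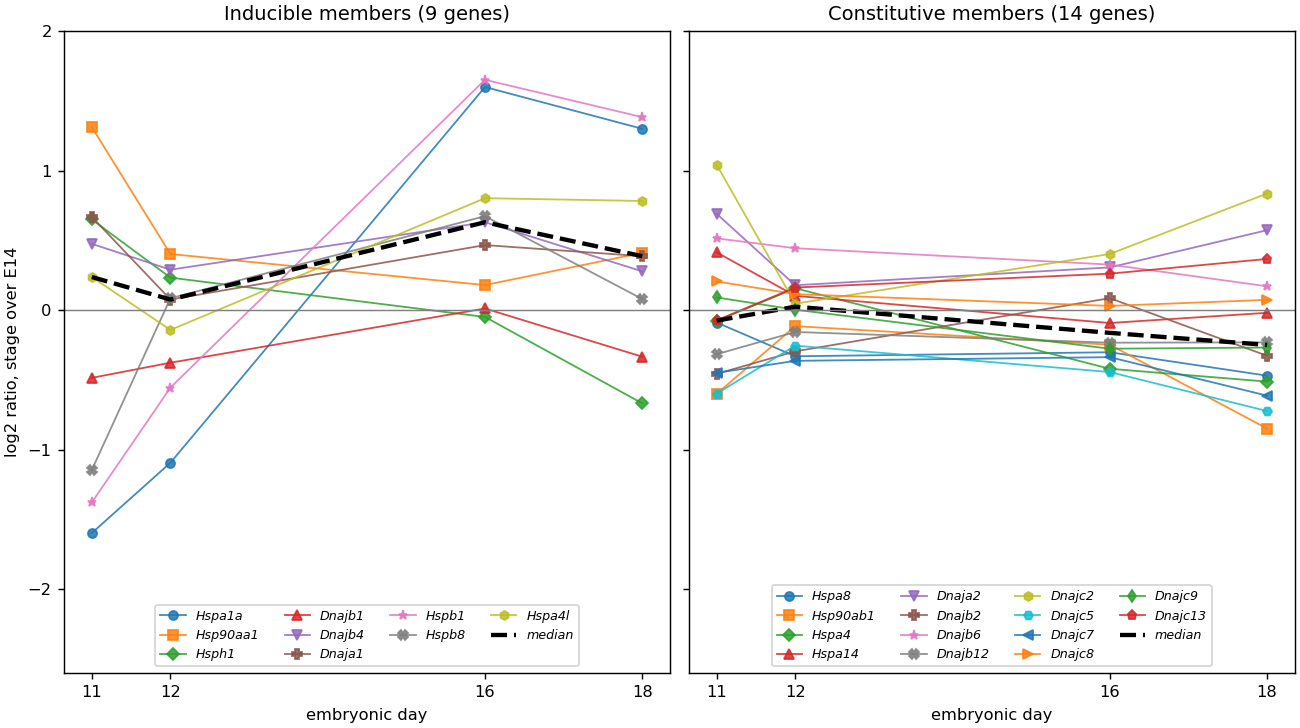
Log2 ratio over E14 against embryonic day for the 9 inducible members (left) and the 14 constitutive members (right), 1 line per gene and a dashed line for the median. At E16 the inducible median was 0.63 and the constitutive median -0.16; Hspa1a and Hspb1 stand apart from the other inducible genes at E16 and E18.

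The 7 genes of the ER list that the name rule takes, called ER members here, were all measured and had their lowest ratios at E12. The list was chosen by hand and need not hold every member that works in the ER. As written it also named Hspa13 and Dnajc25, which the array carries under older names and which enter no count here. Dnajc25 was lowest at E12 too. Hspa13 was lowest at E16, with -0.23, -0.83, -0.86 and -0.66 over the stages. None of the 7 ER members passed the slope test, and 4 had an unadjusted p under 0.05 (Hspa5, Dnajc3, Dnajb9 and Dnajb11). Their medians over the 4 stages were -0.40, -0.67, -0.14 and 0.01, and relative to all genes under median centring 0.32, -0.23, 0.43 and 0.66, so the sign turned for E11 and E16 and not for E12. In steps, all 7 were lower at E12 than at E11 (median difference -0.36) and all 7 were higher at E16 than at E12 (0.58), also under median centring, scanner log ratios, no background correction and probe means. Over all genes these median differences were 0.00 and 0.01, with 8677 of 17415 genes lower at E12 and 8843 higher at E16. At E18, 6 of 7 were higher than at E16 (0.17), and Dnajc1 was not, although with probe means it was too. Over all genes 8440 of 17415 were higher at E18 than at E16.

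Hspa5, the ER HSP70 also called BiP, was the third lowest member at E12 (probe at chr2:34783421-34783480 of mm7). Its intensity was 6104, 4674, 7943 and 8857 at E11, E12, E16 and E18, against 9624, 9434, 8860 and 8800 in E14 (E14 mean 9180 ± 412, n = 4). E11, E12 and E16 lay below E14 on their arrays, by 1.58-fold, 2.02-fold and 1.12-fold, and E18 was level with it at 1.01-fold; relative to all genes under median centring E11 turned (0.34) and so did E16 (0.45), while E12 did not. The slope was 0.13 ± 0.04 (adjusted p = 0.077).

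Dnajc3, which inhibits the stress kinase PERK and helps Hspa5 in the ER lumen, was the lowest member at E12. Its intensity was 586, 409, 900 and 968 over the stages, against 1011, 1050, 990 and 1027 in E14 (E14 mean 1019 ± 25.4, n = 4). It was 1.73-fold lower at E11 and 2.57-fold lower at E12, and it was 1.06-fold lower at E18. The sign at E16 and E18 turned under median centring (0.21 and 0.24) and that at E11 and E12 did not. Its other 3 probes gave -1.05, -0.70 and -0.64 at E12, in each case the lowest stage of the probe. The slope was 0.15 ± 0.05 (adjusted p = 0.10), and without the E16 array it passed.

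Hsp90b1, the ER HSP90 called GRP94, had log2 ratios of -0.01, -0.67, -0.31 and -0.09, and those at E12, E16 and E18 turned under median centring (0.18, 0.35 and 0.66). Dnajb11, a BiP partner, had -0.40, -0.57, 0.01 and 0.21, and Dnajb9, another BiP partner that is induced by ER stress, -0.16, -0.44, 0.29 and 0.44. Neither slope passed (adjusted p = 0.081 for Dnajb11 and 0.10 for Dnajb9). The ratios of Dnajb11 at E11 and E12 turned under median centring (0.32 and 0.05). Dnajc10, an ER reductase with a DnaJ domain, gave 0.40, 0.01, 0.30 and 0.77, and Dnajc1, an ER membrane DnaJ protein, -0.64, -0.82, -0.58 and -0.73. The 3 genes whose promoter windows held the ER stress response element, Hspa5, Dnajc3 and Hsp90b1, were among the 5 lowest members at E12, with Hspa1a and Dnajc1; under median centring Hsp90b1 was above E14 there.

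Of 17 other genes of ER folding and the unfolded protein response, 2 rose and 15 did not pass. Xbp1, a transcription factor of the unfolded protein response, had log2 ratios of -0.73, -0.86, 0.41 and 0.34 (slope 0.19 ± 0.04, adjusted p = 0.039), and Manf, a secreted ER stress protein, -0.50, -0.87, 0.23 and 0.54 (slope 0.18 ± 0.04, adjusted p = 0.038). At E12 all 17 lay below E14, beside 8810 of all 17415 genes. Their medians were -0.50, -0.62, -0.16 and -0.11, and under median centring relative to all genes 0.16, -0.09, 0.37 and 0.27. At E16, 16 of 17 were higher than at E12, beside 8843 of all 17415 genes. Canx, a lectin chaperone, was not and had the lowest slope of the list, -0.02 ± 0.02.

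**Figure D5:**
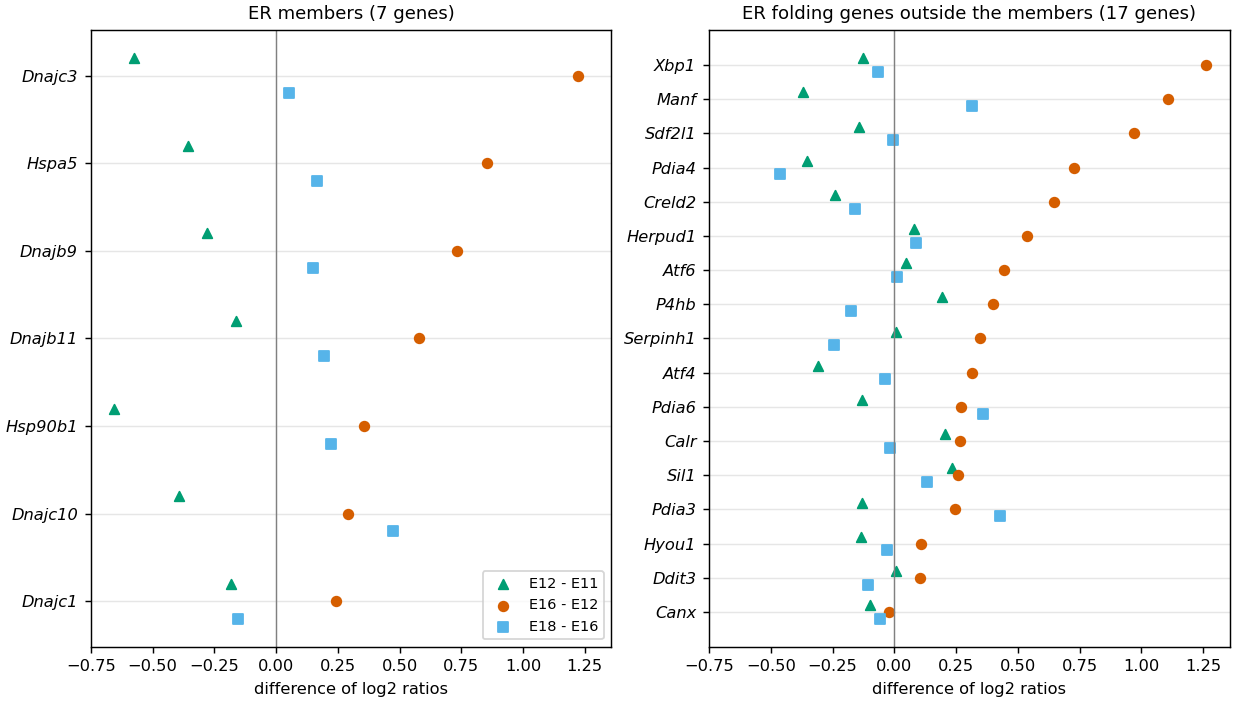
Differences of log2 ratios between neighbouring stages for the 7 ER members (left) and the 17 other ER folding genes (right), with E12 minus E11 as green triangles, E16 minus E12 as orange circles and E18 minus E16 as blue squares. All 7 ER members lie left of 0 for E12 minus E11 and right of 0 for E16 minus E12, and 16 of the 17 other genes lie right of 0 for E16 minus E12.

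The mitochondrial members taken by the name rule stood above E14 at E11. All 7 measured genes did under each scaling tried, beside 8337 of all 17415 genes under the loess scaling. Their median was 0.33 at E11, and the medians later were 0.17, 0.20 and 0.33. None passed the slope test; 1 had an unadjusted p under 0.05. Hspe1 (HSP10), the lid of the mitochondrial chaperonin, gave 0.88, 0.45, 0.30 and 0.35, and Hspd1 (HSP60), its barrel, 0.52, 0.33, -0.13 and -0.16, the late values turning under median centring (0.54 and 0.60). The slope of Hspd1 was -0.10 ± 0.03 (adjusted p = 0.073), and under median centring it passed. Its second probe gave 0.85, 0.47, 0.47 and 0.56, above E14 at the late stages too. Dnajc19, of the inner membrane import motor, gave 0.33, -0.01, 0.28 and 0.66, and the mitochondrial HSP70 Hspa9 gave 0.30, -0.04, 0.09 and -0.01; at E12 both turned under median centring (0.70 and 0.69). Dnajc15, a relative of Dnajc19 in the import motor, gave 0.47, 0.17, 0.20 and 0.33, and Dnaja3, the DnaJ partner of Hspa9, 0.11, -0.05, 0.21 and 0.36, the value at E12 turning as well (0.37). All 7 were lower at E12 than at E11, under each scaling, as were the 7 ER members. The mitochondrial list as written also named Dnajc28 and Dnajc30, which the array carries under older names and which enter no count here. Dnajc28 gave 0.54 at E11 and 0.31 at E12. Dnajc30 gave -0.01 and 0.15, so it was neither above E14 at E11 nor lower at E12. Of all genes 8677 of 17415 were lower at E12 than at E11, and of the measured members 34 of 54.

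Among the small heat shock proteins, 4 of 6 listed genes were measured. Hspb1 rose and Hspb8, Hspb2 and Hspb6 did not pass. Hspb2, known from muscle, gave 0.59, 0.29, 0.30 and 0.03, of which the values at E12, E16 and E18 turned under median centring (-0.05, -0.10 and -0.14). Hspb6, a muscle protein also called HSP20, was dim: in neither early stage was its Cy5 signal well above background, and it was at least 1.12-fold and 1.23-fold lower than E14 at E11 and E12, the bound being the ratio to the higher of the dimmest measured signal and its own. Of 11 skeletal muscle markers 8 were measured and none passed; 1 had an unadjusted p under 0.05. Their summed intensity was 933, 703, 890 and 833 against 889 to 918 in E14, and Myod1, Ckm and Des were not measured. The part of muscle cells in these values was not tested.

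Outside these lists, Dnajc12, a cytosolic DnaJ protein that binds aromatic amino acid hydroxylases, stood above E14 at each stage with 0.63, 0.50, 0.84 and 0.93, the third highest member at E16 and E18. Its slope did not pass (adjusted p = 0.31). Of 9 members listed for germ cells, 3 were measured (Hspa2, Hspb9 and Dnajb3), with medians of -0.05, 0.05, 0.19 and -0.03, the one at E12 turning under median centring (-0.05), and none past the test. The 8 members not measured were Hspa1l, Dnajb7, Dnajb8, Dnajb13, Dnajc5b, Dnajc5g, Hspb3 and Hspb7. Of the measured members, 52 were well above background in both channels on all 4 arrays. The rule also takes Hspbap1, which is named for binding a heat shock protein.

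Between stages, read through the shared E14, 6 members were at least 2-fold apart between E18 and E11: Dnaja4, Hspa1a, Hspb1 and Hspb8 were higher at E18, and Hspa12b and Hsph1 were lower. Over all genes 5.93% were higher and 2.53% lower (8.45% in all). Between E16 and E12, which lie on different slides, 5 were, with Dnaja4, Dnajc3, Hspa1a and Hspb1 higher at E16 and Hspa12b lower, beside 4.78% and 1.48% of all genes (6.26% in all). Between E18 and E16, on the same slide, no member was, and 1.37% of all genes were (0.488% higher and 0.879% lower). All of these differences go through E14, the partner on every array.

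Regulators and partners outside the name rule gave 1 further call among the cytosolic ones. Of 4 measured heat shock factor genes none passed: Hsf1, the main activator of the heat shock response, gave -0.33, -0.09, -0.12 and -0.16, and Hsf2 0.32, 0.01, 0.25 and -0.04. None of the 4 had an unadjusted p under 0.05. Of 21 cochaperones of HSP70 and HSP90, 1 rose, Bag2, an inhibitor of the ubiquitin ligase that acts on HSP70 clients, with 0.59, 0.37, 1.07 and 1.87 (slope 0.19 ± 0.04, adjusted p = 0.044). The lowest slope of the list was that of Fkbp4, a steroid receptor cochaperone, at -0.11 ± 0.03 (adjusted p = 0.060). The 8 subunits of the cytosolic chaperonin had medians of 0.53, 0.35, 0.15 and 0.08, with 0 passing and 4 at an unadjusted p under 0.05. The 6 mitochondrial folding genes, the 6 prefoldin subunits and the 2 alpha crystallins gave 0 calls too, with 0, 2 and 0 genes at an unadjusted p under 0.05.

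Where a gene had several probes, small ratios could differ between them, also in sign. Of the 30 member genes with several measured probes, none had a probe past 2-fold higher beside another past 2-fold lower at any stage, and the median spread between the highest and the lowest probe was 0.28 log2 units. The spread passed 1 in 2 genes, Hspa1a and Dnajb6, and in Hspa1a only through its dimmest probe. Markers of dental mesenchyme fell in 6 of 7 genes over the same arrays, and 3 of 7 red cell markers fell, 2 of 7 neuron markers rose and 0 of 10 mitosis markers passed (5 at an unadjusted p under 0.05). Their part in the values of the members was not tested.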

How the data were processed

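Total RNA of pooled first molar germs, extracted with Trizol per the labels' protocols, was hybridised on 4 Agilent two-colour arrays. Per the file headers, the deposited scanner files come from Agilent Feature Extraction 10.5.1.1 and hold linear intensity values per spot, flags, and the log10 of the red to green ratio; probe positions are of build mm7. The deposited value table holds those log10 values in rounded form (median 0 on each array). Members and gene lists were chosen with earlier results of these data known.

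Intensity values were corrected with normexp (offset 50) and loess (control spots at weight 0) in limma 3.58.1 and R 4.3.3, flagged spots (92 to 126 per array) were left out, and log2 ratios were taken. The offset shrinks the ratios of dim genes. Quoted intensities and the SD of E14 were taken after a further quantile scaling of average intensity between arrays, which was not used for the ratios. Probes were named by accession (98 of 124 member probes) or by symbol (26) through RefSeq GRCm38.p6; Hspa9a, Hsp110 and Dnajb10 became Hspa9, Hsph1 and Dnajb2. A gene took its brightest probe, and counted as measured when the scanner flagged it above background in Cy5 for 1 stage or more, or in Cy3 on 2 arrays or more. Slopes came from lmFit and eBayes with an intensity trend (2 residual degrees of freedom, shared over genes), tested on simulated data. The text names listed members, members past 2-fold or past the test, the 3 highest and lowest members per stage and, of each companion list, calls and extremes of slope; Bag3, Hsf1, Hsf2 and named markers lie outside this rule or were chosen after their values were seen. Alternatives were no background correction, scanner log ratios, median centring, other filters, probe means, slide as a block and leaving out each array.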

Additional observations from a re-analysis of the deposited data

How the results depend on the processing

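No paired analysis was possible because each stage has 1 sample, and the number 1 given to each pairs nothing. With slide as a block 0 members rose and 0 fell, and the slope of Hspa1a was -0.019, with the direction turned round; slide follows the stage side of E14. Leaving out 1 array at a time gave 0 to 5 members that rose and 0 to 2 that fell, and the count over all genes was 201 without E11, 375 without E12, 2383 without E16 and 1985 without E18, against 1544; with 3 arrays only 1 residual degree of freedom is left. Without E16, Dnajc3 and Dnajc6 passed as well. The 5 calls were kept under no background correction, scanner log ratios, median centring (6 members), either filter and probe means. Median centring, with its shift of all genes left in, gave 22, 28, 28 and 13 members at least 2-fold from E14 at E11, E12, E16 and E18, and 10, 2 and 3 between E18 and E11, E12 and E11, and E18 and E16. Scanner log ratios gave 5 at E16, 9 at E18, and 10, 2 and 1 between the same stages. Without background correction there were 7 at E18 and 2 between E12 and E11, and probe means gave 1 at E12. The inducible minus constitutive median was 0.42 at E11 without background correction, 0.56 at E11 and 0.85 at E16 with scanner log ratios, -0.29, -0.087, 0.49 and 0.46 over the 4 stages with median centring, and -0.0057, 0.57 and 0.46 at E11, E16 and E18 with probe means. The cause was not tested. Signal over background limits the dim members, Dnaja4 among them, and 1 pool per stage limits all values.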

Other observations

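The name rule misses 10 chaperone genes that the array carries under older names, and 9 of them were measured with none past the slope test. Dnajc24, which takes part in making diphthamide, had log2 ratios of 1.04, 0.40, 0.71 and 1.04 at E11, E12, E16 and E18. Hspa13, an HSP70 relative of the endoplasmic reticulum, gave -0.23, -0.83, -0.86 and -0.66, so unlike the 7 ER members it was not higher at E16 than at E12. Dnajc25, a further DnaJ protein of membranes, gave -0.49, -0.72, -0.47 and -0.19, lowest at E12. Dnajc21, Dnajc27, Dnajc28, Dnajc30, Hspb11 and Hspbp1 were within 2-fold of E14 on each array, and Dnajc22 was not measured. Hspa13 and Dnajc25 were named in the ER list, and Dnajc28 and Dnajc30 in the mitochondrial list, and the name rule left them out. The other genes were picked after the array names had been seen. None of these genes enters a count above.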
